A study of Homo sapiens with 18 samples.

Results

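Nucleotides, the building blocks of RNA and DNA, are made in cells along routes that meet. De novo synthesis assembles the pyrimidine ring (CAD, DHODH, UMPS, CTPS1, CTPS2) and the purine ring (PPAT through ATIC, then IMPDH1, IMPDH2 and GMPS) from small precursors, while salvage kinases such as TK1 and UCK2 recover nucleosides that have already been used. Ribonucleotide reductase (RRM1, RRM2, RRM2B) and thymidylate synthase (TYMS) turn ribonucleotides into DNA precursors, mono- and diphosphate kinases complete the triphosphates, and phosphorylases, deaminases, nucleotidases and the dihydropyrimidine pathway take them apart. Dividing cells raise several of these enzymes around S phase.

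The expression of 42 such enzymes, chosen by name, was described among the 50119 genes listed for the series. All 42 were found, and 41 passed the filter on low values (3 libraries or more with an FPKM of 0.1 or above) in every comparison. The exception was UPB1, the last enzyme of pyrimidine breakdown, which ranged from 0 to 0.183 FPKM and was listed at 0 in 4 libraries. FPKM scales the fragments of a gene to its length and to the total of the library, so levels are given as FPKM.

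RNA sequencing values of 18 libraries were used, 3 in each of 6 groups. Every library came from Saos-2, an established human osteosarcoma (OS) cell line that the labels write as Soas-2 with genotype WT. D-2 denotes flat culture of the cells (2D cells), D-3 the cells embedded in Matrigel (3D cells), DP-3 the 3D cell-printed tissue, and IT tumor tissue cut out and cultured, all cultured in vitro and taken on day 14. DP-3 day 1 is the printed tissue after 1 day. FIT, labelled as growth in vivo, is the fresh tumor on day 14 after cells in Matrigel were placed under the skin of 4-week-old female BALB/c nude mice. Each excised tumor was divided, and a piece of it supplied the IT cultures, so IT and FIT both hold mouse host cells. The sources used here do not say which mouse, tumor or culture each library came from, and p-values therefore measure only the spread between these libraries.

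Estimated counts summed to between 50327345 and 79082786 a library, except for 23721666 in FIT replicate 3. The mitochondrial share of the counts was highest in DP-3 replicate 3, at 9.22%, and lowest in D-2 replicate 1, at 2.13%. The defining osteoblast markers were at or near 0 in these libraries of an OS line: ALPL reached at most 0.148 FPKM, SP7 0.0949 and IBSP 0.0802, while RUNX2 lay between 0.610 and 2.41. The genes listed are human, so RNA of the mouse host could be counted only where its reads matched human genes. The cell type lists below therefore do not measure how many host cells were present. The summed level of 7 skeletal muscle genes was 0.550 and 0.623 in FIT replicates 1 and 2, 5.00 in FIT replicate 3 and at most 0.550 elsewhere. The 7 endothelial genes summed to 5.52 to 9.39 in FIT, 4.43 to 8.19 in IT and 1.3 to 4.39 in the other groups. The 10 macrophage genes summed to 20.1 to 117, nearly all of it CD68, and PTPRC did not pass 0.0625 in any library. The 7 fibroblast genes summed to 61.1 to 132, with the highest mean in D-2, a culture without host cells, and DCN was at most 0.0858. THY1 made up most of that sum except in FIT replicates 1 and 2, where it was 25.4 and 33.7 FPKM, PDGFRA 24.3 and 28.3 and PDGFRB 11.9 and 10.4. No list had a gene at 0 in all 18 libraries. In FIT and IT, fewer tumor cells and less RNA per tumor cell cannot be told apart.

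**Figure D1:**
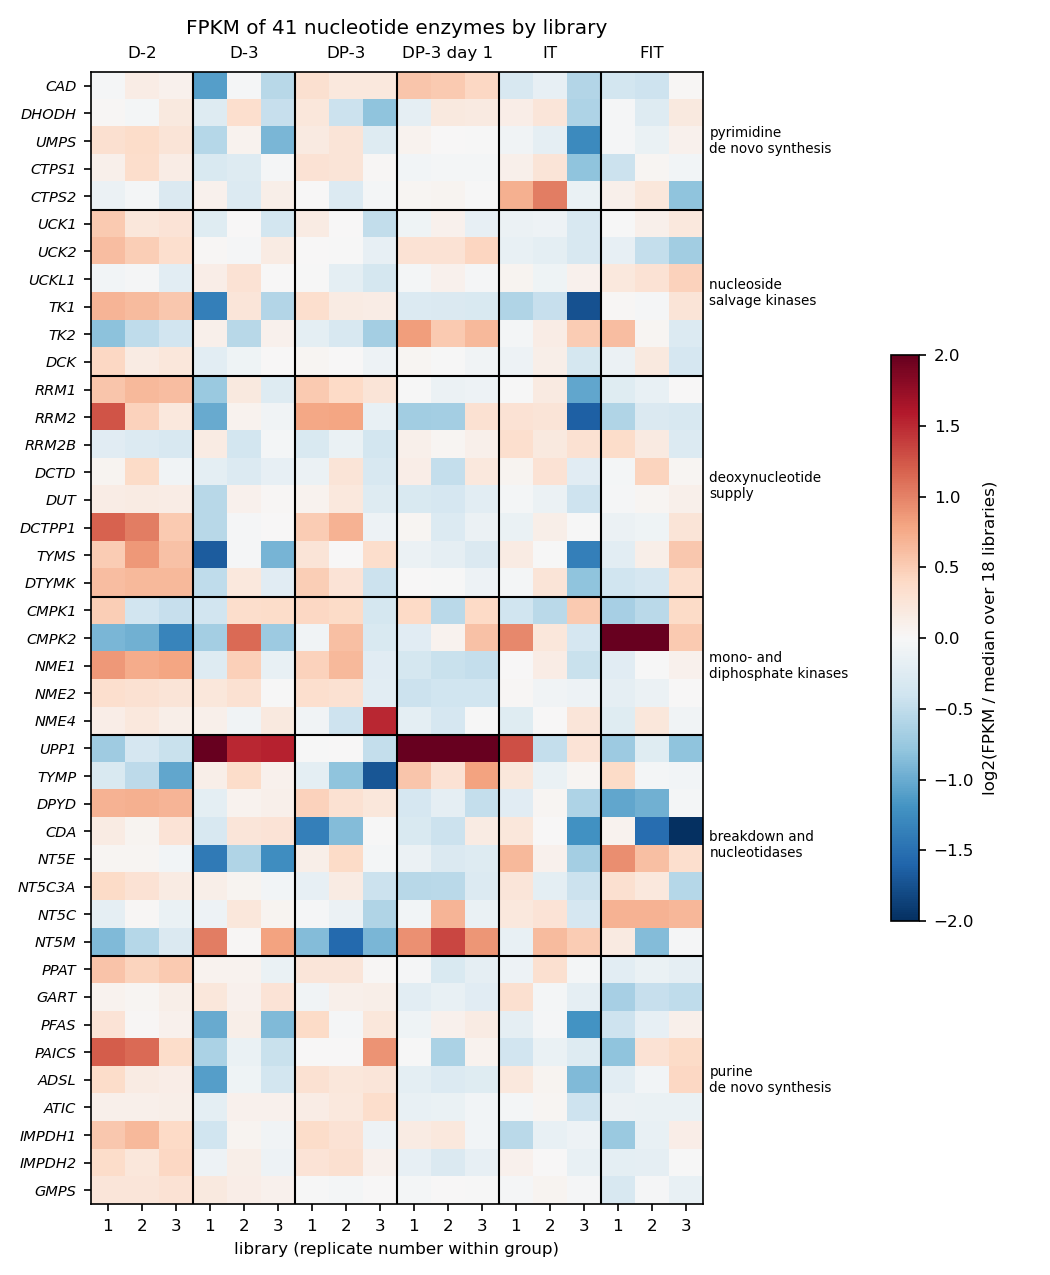
FPKM of the 41 enzymes that passed the filter (rows, grouped by role) in the 18 libraries (columns, grouped by culture), as log2 of the ratio to each gene's median over the libraries, with the colour range limited to -2 to 2. The D-2 columns are mostly red in the deoxynucleotide and purine rows, UPP1 is dark red in D-3 and DP-3 day 1, and CMPK2 is dark red in FIT replicates 1 and 2.

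The levels of the 42 enzymes spanned several orders of magnitude. NME2, a nucleoside diphosphate kinase, was the highest, with a mean of 175 FPKM over the 18 libraries, followed by IMPDH2, the enzyme that commits IMP to guanine nucleotides, at 88.1, and TK1, the cytosolic thymidine kinase, at 64.2. By group means, D-2 was the highest group for 22 of the 42 enzymes, DP-3 day 1 for 6, DP-3 and FIT for 5 each, and D-3 and IT for 2 each. The lowest group was D-3 for 13, FIT for 9, DP-3 and DP-3 day 1 for 6 each, and D-2 and IT for 4 each. The F test of edgeR's quasi-likelihood fit over all 6 groups, adjusted by the Benjamini-Hochberg method, gave an adjusted p below 0.05 for 29 of the 41 enzymes tested, and 37.3% of all genes passed it. With at least 2-fold between the highest and the lowest group, 16 of the 41 were called, against 23.8% of all genes: UCK2, TK1, RRM1, RRM2, DCTPP1, TYMS, DTYMK, CMPK2, NME1, NME2, UPP1, DPYD, NT5E, NT5C3A, NT5M and PAICS. Among the pyrimidine de novo enzymes none was called, and 2 of 5 passed without the fold minimum. Of the 18 fits that left out 1 library, 12 did not call RRM2, all but those without D-2 replicate 3, DP-3 replicate 3, DP-3 day 1 replicate 3 or an IT library, with an adjusted p of up to 0.146 (without D-2 replicate 1). DTYMK lost its call without any D-2 library (adjusted p up to 0.062) or without D-3 replicate 1 or 3 (0.984 and 0.999 on the log2 scale), and NT5C3A without D-2 replicate 1 or 2 or DP-3 day 1 replicate 1 or 2 (adjusted p up to 0.0716). Single libraries ended the call of TYMS (D-2 replicate 2, adjusted p = 0.0605), UCK2 (FIT replicate 3, 0.976 on the log2 scale) and RRM1 (D-3 replicate 1, 0.999), and NME2 was just under 2-fold without D-3 replicate 2 or IT replicate 2 (0.990 and 0.991).

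TYMS, which makes thymidylate from dUMP, was read at 80.4, 103 and 84.5 FPKM in D-2. In D-3 it was 17.9, 55.4 and 29.6, and in FIT 48.7, 61.1 and 82.3. D-3 replicate 2 stood above the other D-3 libraries, while no D-3 library reached D-2. In DP-3 the TYMS values were 67.3, 57 and 72.2, in DP-3 day 1 51.8, 50.0 and 46.4, and in IT 63.4, 56.0 and 21.9. The DP-3 libraries were all above those of day 1, and IT replicate 3 was far below the other IT libraries.

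TK1, the salvage route to the same product, was 105, 101 and 95.2 FPKM in D-2, above every other library of the series. It was 82.4, 73.2 and 72.5 in DP-3, 25.4, 77.5 and 43.7 in D-3, and 54.0, 53.6 and 53.2 in DP-3 day 1. IT gave 43.0, 47.5 and 19.5, and FIT 66.5, 64.6 and 78.1. The D-3 range covered that of FIT almost entirely, and IT lay below FIT without overlap.

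RRM1, the large subunit of ribonucleotide reductase, had 40.1, 42.7 and 41.7 FPKM in D-2, 38.9, 35.8 and 32.4 in DP-3, and 16.2, 31.3 and 22.8 in D-3. It was 26.9, 25.1 and 25.2 in DP-3 day 1, 26.9, 30.8 and 13.2 in IT, and 23.0, 24.5 and 27.4 in FIT. D-2 and DP-3 were above FIT without overlap.

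RRM2, the small subunit that limits the enzyme in S phase, was more scattered within groups. The values were 32.4, 18.6 and 15.6 FPKM in D-2, 23.0, 23.4 and 12.2 in DP-3, and 6.68, 14.2 and 12.8 in D-3. DP-3 day 1 had 8.35, 8.47 and 16.7, IT 16.4, 16.1 and 4.35, and FIT 8.86, 11 and 10.8. In every group but FIT, 1 library stood apart from the other two. RRM2B, the p53-inducible small subunit, moved within a narrow range of 6.32 to 10.5 over all libraries.

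DCTPP1, which hydrolyses dCTP and modified dCTP, had 58.3, 52.2 and 36.9 FPKM in D-2 and 17.5, 25.4 and 25.8 in D-3. DP-3 gave 36.6, 41.8 and 24.1, DP-3 day 1 26.6, 21.4 and 23.8, IT 23.4, 27.9 and 25.8, and FIT 23.6, 24.4 and 30.8. D-2 was above every library of D-3, DP-3 day 1, IT and FIT. DTYMK, the kinase that follows TYMS and TK1, was 30.0, 30.6 and 30.6 FPKM in D-2, 27.6, 23.7 and 14.4 in DP-3, 13.7, 22.6 and 16.7 in D-3, 19.7, 19.3 and 18.1 in DP-3 day 1, 19.0, 23.4 and 11.2 in IT and 14.8, 15.5 and 24.6 in FIT. The D-2 libraries were again above all the others, and nearly equal to each other. DUT, which removes dUTP, and DCTD, which deaminates dCMP, varied little, at 12.7 to 21.5 and 9.14 to 17.3 FPKM over the 18 libraries.

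**Figure D2:**
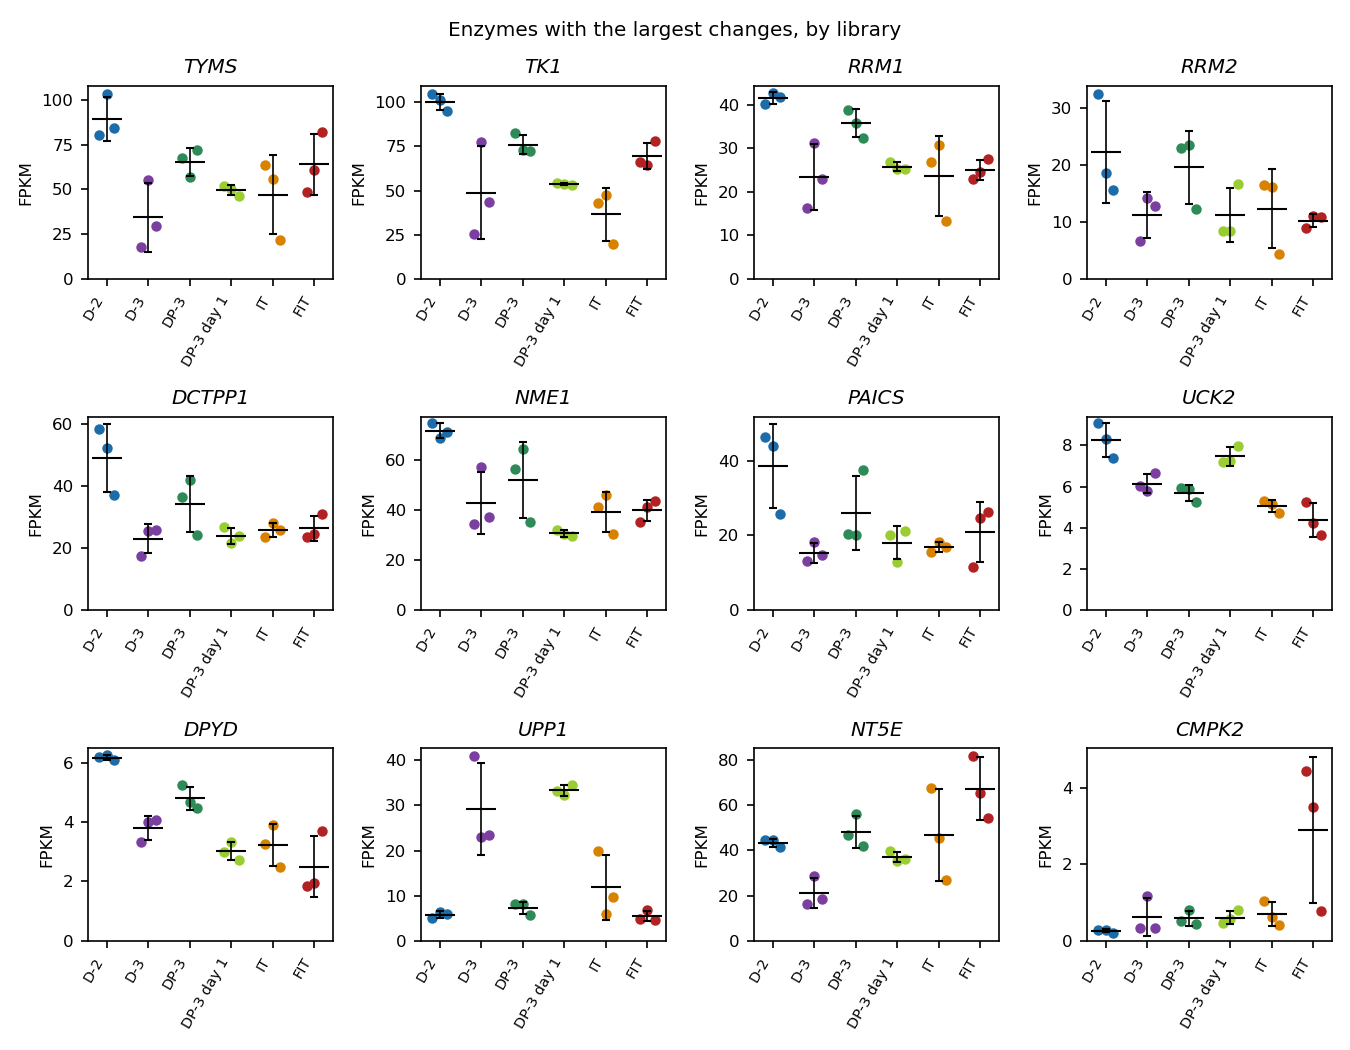
FPKM of 12 enzymes in each library (points, replicates 1 to 3 from left to right) with the group mean and SD (bars, n = 3), one panel a gene and every axis from 0. TYMS, TK1 and RRM1 have their highest means in D-2, UPP1 is high in D-3 and DP-3 day 1, and FIT replicates 1 and 2 are the highest libraries for CMPK2.

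The bases just before the start sites of TYMS, TK1 and RRM2 are shown as examples from the 22 enzymes with their highest means in D-2. The stretches, from 1 start site of each gene, were taken from RefSeq (GRCh38.p14), where 39 of the 42 enzymes had 61 promoter windows. Each is written 5′ to 3′ on the gene's own strand and ends 1 base before the start site. TYMS starts at position 657653 of chromosome 18 on the plus strand and overlaps ENOSF1, an antisense gene, by 3261 bases at its far end, so their reads may be shared. TK1 lies on the minus strand of chromosome 17, and RRM2 on the plus strand of chromosome 2. The RRM2 start site used, 10122739, lies inside the gene as listed for the series, which begins at 10120698.
TYMS, chr18:657533-657652: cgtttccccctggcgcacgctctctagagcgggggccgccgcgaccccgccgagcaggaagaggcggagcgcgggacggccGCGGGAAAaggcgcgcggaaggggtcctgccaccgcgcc
TK1, chr17:78187053-78187172: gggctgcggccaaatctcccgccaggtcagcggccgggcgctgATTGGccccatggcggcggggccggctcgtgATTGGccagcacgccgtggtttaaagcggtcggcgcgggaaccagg
RRM2, chr2:10122619-10122738: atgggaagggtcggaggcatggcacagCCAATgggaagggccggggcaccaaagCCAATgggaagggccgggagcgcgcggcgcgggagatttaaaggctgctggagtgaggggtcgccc
Capitals mark matches to the E2F and CCAAT letters, searched on both strands. The E2F set (TTTGGCGC, TTTCCCGC, TTTCGCGC and TTTGCCGC) was found in the TYMS stretch, and CCAAT in the TK1 and RRM2 stretches. No match was found at any other TK1 start site. In the RefSeq windows of 300 bases, E2F letters occurred in 6 of the 61 windows of these enzymes (CDA, CMPK2, DCK, DUT, TYMS and GART) and in 3.317% of 35093 windows of all genes. CCAAT occurred in 17 of the 61 and in 34.61% of all, and the letters of an interferon-stimulated response element in 0 of the 61 and in 3.576% of all. A match describes letters and is not evidence of binding.

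Among the pyrimidine de novo enzymes, CAD, the multifunctional enzyme of the first steps, was highest in DP-3 day 1, at 24.2, 23.9 and 22.0 FPKM. It was 16.2, 18.3 and 17.5 in D-2, 20.7, 19.2 and 19.1 in DP-3, 7.69, 16.4 and 11.3 in D-3, 13.2, 14.8 and 11 in IT, and 12.8, 12.4 and 16.7 in FIT. All DP-3 libraries of day 14 were above FIT and below day 1. DHODH, the mitochondrial step, was low and even: 2.08, 2.00 and 2.34 FPKM in D-2, 2.40, 1.53 and 1.17 in DP-3, 1.73, 2.60 and 1.5 in D-3, 1.82, 2.35 and 2.33 in DP-3 day 1, 2.26, 2.42 and 1.34 in IT and 2.02, 1.72 and 2.35 in FIT. Its groups overlapped, and the test over the 6 groups gave an adjusted p of 0.759. UMPS, which forms UMP, was 8.26, 8.53 and 7.92 FPKM in D-2, 7.49, 7.93 and 5.51 in DP-3, 4.45, 6.94 and 3.51 in D-3, 6.97, 6.63 and 6.62 in DP-3 day 1, 6.33, 5.84 and 2.74 in IT and 6.54, 6.05 and 7.05 in FIT. The D-2 libraries lay above those of D-3 and FIT. CTPS1 and CTPS2, which make CTP from UTP, covered 6.19 to 13.9 and 1.56 to 5.53 FPKM.

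Of the other salvage kinases, UCK2, a uridine-cytidine kinase, was 9.08, 8.32 and 7.41 FPKM in D-2 and 7.19, 7.24 and 7.99 in DP-3 day 1. It was 5.95, 5.86 and 5.26 in DP-3, 6.01, 5.79 and 6.64 in D-3, 5.32, 5.14 and 4.71 in IT, and 5.27, 4.25 and 3.63 in FIT. FIT was the lowest group, with D-2, D-3 and DP-3 day 1 above it without overlap. TK2, the mitochondrial thymidine kinase, was lowest in D-2, at 3.82 ± 0.57 FPKM (SD, n = 3), and highest in DP-3 day 1, at 8.97 ± 1.01. UCK1, UCKL1 and DCK stayed within 6.70 to 13.5, 8.64 to 15.1 and 6.75 to 11.4 FPKM.

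CMPK2, a mitochondrial UMP-CMP kinase that is known as an interferon-stimulated gene, was 4.45, 3.50 and 0.776 FPKM in FIT. Its D-2 values were 0.285, 0.277 and 0.216. It was 0.514, 0.815 and 0.436 in DP-3, 0.335, 1.18 and 0.326 in D-3, 0.460, 0.563 and 0.804 in DP-3 day 1, and 1.05, 0.630 and 0.425 in IT. FIT replicates 1 and 2 were above every other library, whereas FIT replicate 3 lay within the range of IT, D-3, DP-3 and DP-3 day 1. The summed level of 12 interferon response genes was 586, 397 and 147 FPKM in the same FIT libraries and at most 96.9 in any D-2 library. D-3 had 227, 495 and 228, DP-3 had 233, 306 and 128, DP-3 day 1 had 333, 342 and 344, and IT had 156, 130 and 194. D-3 replicate 2 was the highest D-3 library on both measures, at 1.18 and 495. The DP-3 day 1 libraries held more of the interferon list than DP-3 replicates 1 to 3 but were in the CMPK2 range of DP-3. CMPK2 overlaps RSAD2, an interferon response gene on the opposite strand, by 14 bases.

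CMPK1, the cytosolic UMP-CMP kinase, fell into a lower band of 9 libraries, at 18.4 to 23.0 FPKM, and an upper band of 9, at 37.3 to 42.3. No library lay between the bands, and every group had libraries in each: 1 of 3 in the upper band in D-2, IT and FIT and 2 of 3 in D-3, DP-3 and DP-3 day 1. The sources used here do not give how the values of a gene were formed from its transcripts in each library, and whether these bands, or the single libraries that stood apart for RRM2, NME4 and PAICS, reflect transcript abundance was not tested. NME1 and NME2 lie 3006 bases apart, and a read-through gene covers both, so their reads may be shared. NME1 had 74.9, 68.9 and 71.2 FPKM in D-2, 56.4, 64.5 and 35.1 in DP-3, 34.2, 57 and 37.2 in D-3, 32, 30.3 and 29.4 in DP-3 day 1, 41.2, 45.8 and 30.3 in IT and 35.3, 41 and 43.5 in FIT. D-2 exceeded every other library for NME1, and DP-3 exceeded DP-3 day 1 without overlap. NME2 spanned 127 to 216 FPKM and was lowest in DP-3 day 1, at 129 ± 1.52 (SD, n = 3). NME4, a mitochondrial member, was 16.6 FPKM in DP-3 replicate 3 and between 4.41 and 6.95 in all other libraries.

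**Figure D3:**
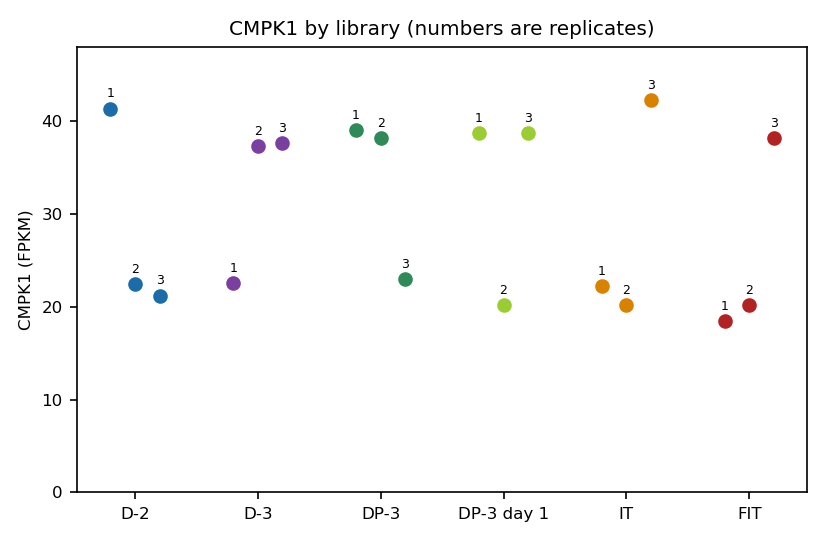
CMPK1 in FPKM (vertical axis, from 0) in each library of the 6 groups (points, numbered by replicate). The 18 points form a lower and an upper band of 9 each, 18.4 to 23.0 and 37.3 to 42.3 FPKM, and every group has points in both.

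Among the breakdown enzymes, UPP1, the uridine phosphorylase, had the widest contrast between group means after CMPK2 among the enzymes that passed the filter. It was 40.9, 23.1 and 23.5 FPKM in D-3 and 33.1, 32.2 and 34.6 in DP-3 day 1. It was 4.96, 6.45 and 5.98 in D-2, 8.11, 8.15 and 5.81 in DP-3, 19.9, 5.85 and 9.80 in IT, and 4.91, 6.87 and 4.68 in FIT. D-3 and DP-3 day 1 were above every other library without overlap, and IT replicate 1 was the highest of the remaining ones.

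DPYD, the first enzyme of pyrimidine ring breakdown, was nearly equal in the D-2 libraries, at 6.18, 6.26 and 6.08 FPKM. It was 5.24, 4.69 and 4.46 in DP-3, 3.34, 3.99 and 4.07 in D-3, 3.01, 3.35 and 2.74 in DP-3 day 1, 3.25, 3.92 and 2.49 in IT, and 1.85, 1.96 and 3.70 in FIT. FIT replicate 3 was above the other FIT libraries, yet below D-2 and DP-3.

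NT5E, the surface nucleotidase CD73 that releases adenosine from AMP, was highest in FIT, at 82.0, 65.6 and 54.4 FPKM, and lowest in D-3, at 16.2, 28.5 and 18.3. It was 44.5, 44.4 and 41.4 in D-2, 46.8, 56.0 and 42 in DP-3, 39.6, 35.5 and 36.3 in DP-3 day 1, and 67.6, 45.7 and 27.1 in IT. The D-3 libraries were below those of every group except the lowest IT library. NT5C, a cytosolic nucleotidase, was 17.8, 17.9 and 17.4 FPKM in FIT, and of the other libraries DP-3 day 1 replicate 2, at 17.7, was the only one in that range. NT5M, a mitochondrial nucleotidase, was 2.70, 3.61 and 2.64 FPKM in DP-3 day 1 and 0.785, 0.487 and 0.757 in DP-3. It was 0.779, 0.967 and 1.17 in D-2, 2.92, 1.45 and 2.49 in D-3, 1.28, 2.22 and 2.04 in IT, and 1.62, 0.785 and 1.41 in FIT. NT5C3A, which acts on pyrimidine monophosphates, was 9.47, 8.89 and 8.22 FPKM in D-2, 6.5, 8.21 and 5.40 in DP-3, 7.88, 7.62 and 6.99 in D-3, 4.97, 5.01 and 6.01 in DP-3 day 1, 8.63, 6.35 and 5.44 in IT and 9.12, 8.48 and 4.91 in FIT. D-2 was above DP-3 day 1 without overlap. CDA, the cytidine deaminase, was 6.56, 2.17 and 0.622 FPKM in FIT, a larger spread within a group than for any other enzyme that passed the filter, and 2.41 to 7.57 in the other groups. TYMP, the thymidine phosphorylase, was at most 1.04 FPKM and overlaps SCO2 by 394 bases on the same strand.

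Of the purine de novo enzymes, PAICS, which carries out consecutive middle steps of the ring, varied most. It was 46.3, 43.9 and 25.8 FPKM in D-2, 20.3, 20.2 and 37.5 in DP-3, 13.0, 18.3 and 14.7 in D-3, 20.0, 12.9 and 21.1 in DP-3 day 1, 15.4, 18.3 and 16.9 in IT, and 11.5, 24.6 and 26.2 in FIT. D-2 was above D-3, DP-3 day 1 and IT without overlap, and single libraries of D-2, DP-3 and FIT stood apart from their groups. PPAT, the first committed step, faces PAICS head to head: the genes lie on opposite strands of chromosome 4 with 125 bases between their annotated ends. PPAT was 9.58, 8.72 and 9.21 FPKM in D-2 and between 5.21 and 8.07 in all other libraries. The stretch between the genes is shown because PPAT and PAICS share it, in the PAICS direction on the plus strand, from RefSeq's GRCh38.p14, and neither the E2F letters nor CCAAT was found in it.
PPAT–PAICS, chr4:56435616-56435740: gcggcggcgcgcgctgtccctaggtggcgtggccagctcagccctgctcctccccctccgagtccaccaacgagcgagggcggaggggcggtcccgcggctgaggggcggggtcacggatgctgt
GART, which holds several early steps, was lowest in FIT, at 11.2, 12.8 and 12.4 FPKM, and between 15.2 and 22.1 in every other library. IMPDH2 was 110, 100.2 and 114 FPKM in D-2, 103, 107 and 90.8 in DP-3, and 69.9 to 92.3 in the rest. PFAS, ADSL, ATIC, IMPDH1 and GMPS covered 4.62 to 13.8, 3.77 to 10.9, 23.8 to 40.6, 6.29 to 16.4 and 9.65 to 14.8 FPKM.

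The comparisons were fitted on estimated counts scaled by edgeR's TMM method, each on its own 6 libraries. Positive log2 fold changes are those where the first-named group was higher, each with its standard error (SE). Adjusted p-values are those of the quasi-likelihood test in edgeR after Benjamini-Hochberg correction over all genes tested. Upregulated and downregulated refer to an adjusted p below 0.05. DEGs had in addition a fold change of at least 2. With 3 libraries against 3, an exact permutation test of a single gene cannot give a p below 0.1, and the overlap of libraries in FPKM is given instead. This overlap comes from the same libraries as the calls and is no separate support for them. Its share over all genes is not given. The FPKM values are not TMM-scaled. Without TMM, on library totals alone, the median log2 fold change of all genes moved by -0.16 in D-2 and -0.13 in DP-3 against FIT, by -0.26 in DP-3 against day 1 and by 0.26 in D-3 against D-2.

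**Figure D4:**
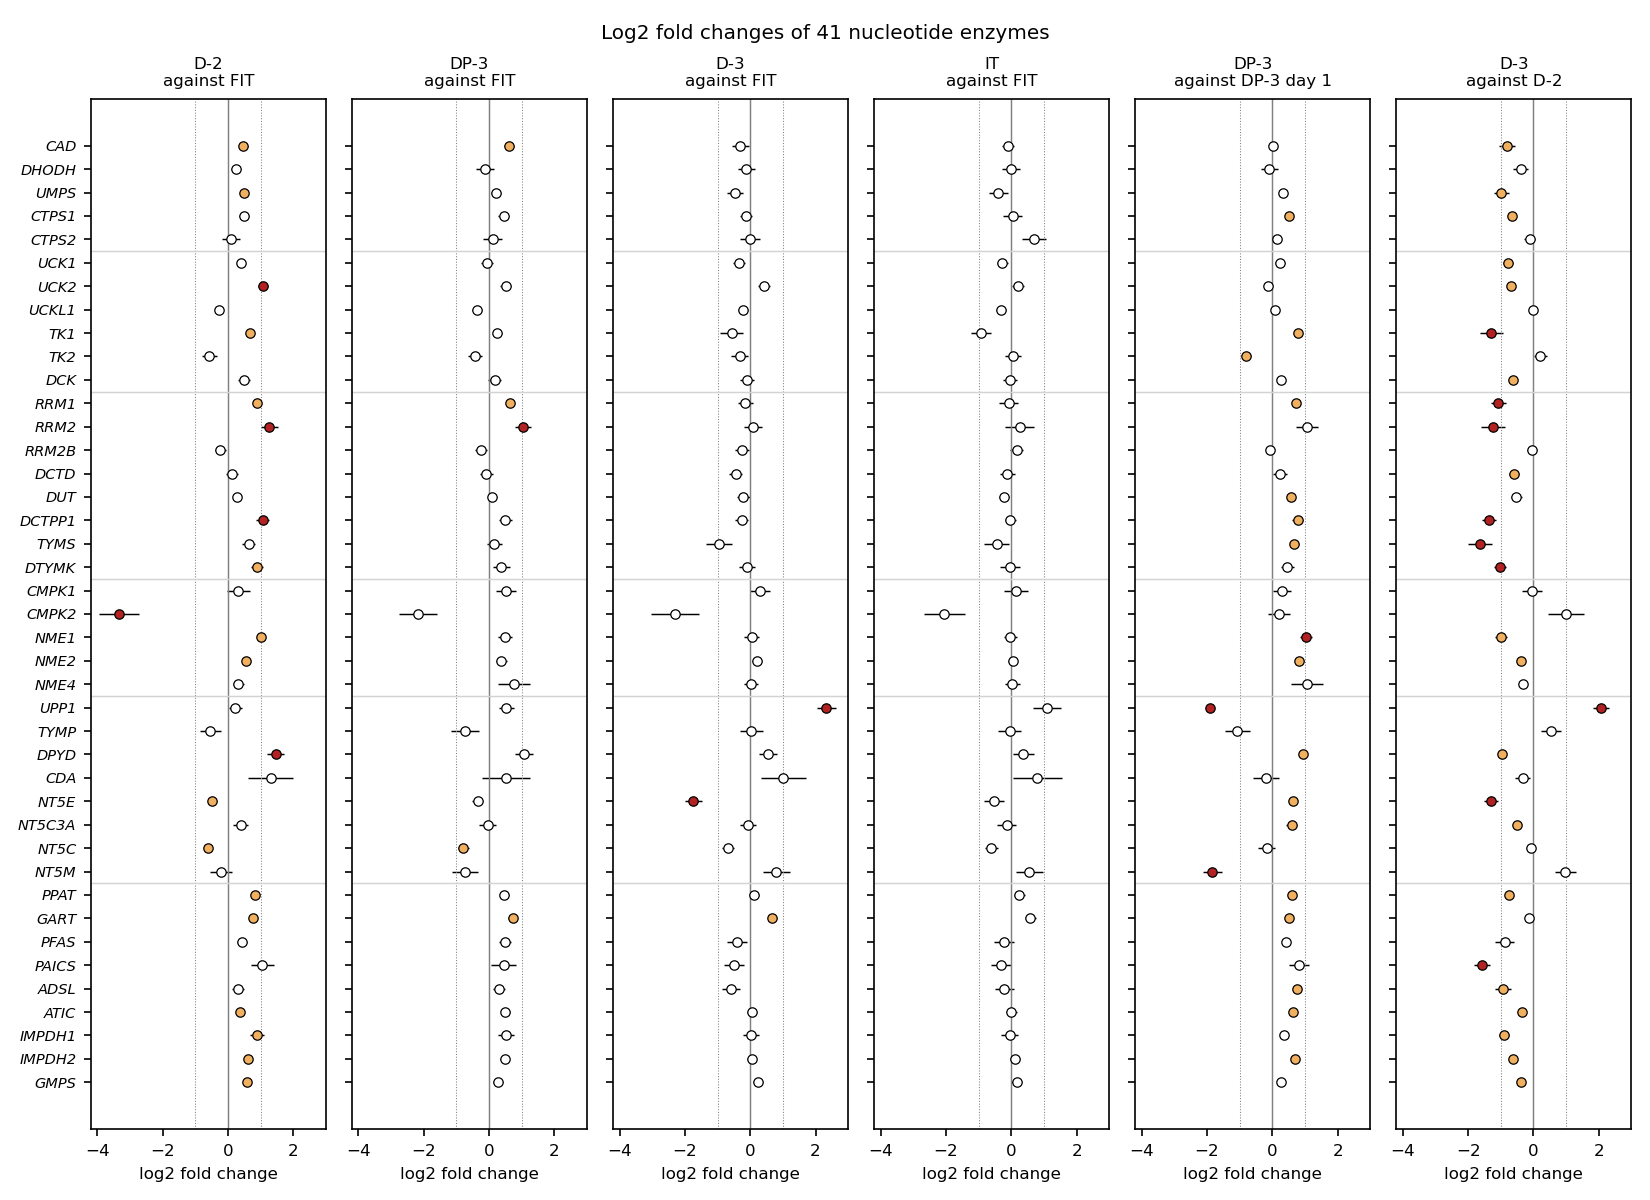
Log2 fold changes (points) with SE (bars) of the 41 enzymes in the 6 comparisons, one panel each, genes grouped by role. Red points are DEGs, orange points have an adjusted p below 0.05 at less than 2-fold, white points did not pass, and dotted lines mark 2-fold. The D-2 against FIT panel lies mainly right of 0 and the D-3 against D-2 panel mainly left of it, with UPP1 on the right.

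D-2 against FIT compares flat culture with the tumor in vivo. Enzymes of DNA precursor supply and of purine synthesis were higher in D-2, and the interferon-linked CMPK2 was lower. In all, 17 of the 41 enzymes were upregulated, while 16% of all genes were, and 3 were downregulated, while 14.9% of all genes were. With limma on unscaled log2(FPKM + 0.1), 10 were upregulated and 2 downregulated, while 1708 of the 5322 genes that passed it were higher in D-2. DEGs numbered 5, against 14.6% of all genes. DPYD rose by 1.47 (SE 0.26, adjusted p = 0.00749), RRM2 by 1.27 (SE 0.27, adjusted p = 0.014), UCK2 by 1.07 (SE 0.15, adjusted p = 0.00401) and DCTPP1 by 1.06 (SE 0.19, adjusted p = 0.00761) on the log2 scale. CMPK2, the pyrimidine gene the study names on these samples, had a log2 fold change of -3.34 (SE 0.61, adjusted p = 0.0081), and the D-2 libraries lay below all FIT libraries. NME1 was just short of 2-fold, at 0.996 (SE 0.115, adjusted p = 0.00239). In the deoxynucleotide list 4 of 8 rose, RRM1 and DTYMK at 0.89 each besides RRM2 and DCTPP1, while TYMS gave 0.64 at an adjusted p of 0.0501. In the purine list 6 of 9 rose, with PPAT at 0.83 and IMPDH2 at 0.62, in the pyrimidine de novo list 2 of 5 (CAD 0.47, UMPS 0.49), and among the salvage kinases UCK2 and TK1 (0.68). NT5C fell by 0.63 and NT5E by 0.48. The median log2 fold change was 0.47 over the 41 enzymes and -0.09 over all genes tested. Beside this, 9 of 12 proliferation markers were upregulated and 8 of 12 interferon response genes downregulated, and their part in the result was not tested. Without D-2 replicate 1 the DEGs were 2, CMPK2 and DPYD, with UCK2 at 0.995, RRM2 at 0.89 and DCTPP1 at 0.92 under 2-fold. Of all 18988 genes tested in that fit, 1759 were DEGs. UCK2 was also under 2-fold without FIT replicate 3 (0.92), and without FIT replicate 1 RRM2 (1.13, adjusted p = 0.0545) and DCTPP1 (0.94) were no longer DEGs.

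DP-3 against FIT sets the printed tissue beside the tumor. RRM2, RRM1, CAD and GART were higher in the printed tissue and NT5C lower. Upregulated enzymes numbered 4 of 41, against 4.21% of all genes, and 1 was downregulated, against 4.19%. RRM2 was the single DEG, where 4.82% of all genes were DEGs, at a log2 fold change of 1.04 (SE 0.24, adjusted p = 0.0409), and its DP-3 libraries were above FIT without overlap. CAD rose by 0.62 (SE 0.15, adjusted p = 0.0479), RRM1 by 0.64 (SE 0.14, adjusted p = 0.0347) and GART by 0.72 (SE 0.15, adjusted p = 0.0301). NT5C fell by 0.79 (SE 0.18, adjusted p = 0.0378). DPYD, at 1.07 (SE 0.27), missed the threshold with an adjusted p of 0.0503, although its libraries did not overlap, and CMPK2, at -2.19, had 0.0564. The median was 0.37 over the enzymes and -0.06 over all genes. Proliferation markers passed upward in 4 of 12 cases, and their part was not tested. The call of RRM2 was lost without DP-3 replicate 1 (0.92, adjusted p = 0.11), DP-3 replicate 2 (0.92, 0.108), FIT replicate 1 (0.92, 0.129), FIT replicate 2 (1.13, 0.0876) or FIT replicate 3 (1.06, 0.0571), and the DEG count then was 0, except without FIT replicate 3, where CMPK2 and DPYD were the DEGs. CAD, RRM1, GART and NT5C lost their calls too, and 0 of the 41 enzymes passed, without DP-3 replicate 1, DP-3 replicate 2, FIT replicate 1 or FIT replicate 2, and likewise with the replicate block and with limma. Without DP-3 replicate 3 RRM2 alone passed, and on library totals alone GART and NT5C. Fewer of all genes passed in these fits too: 90 of 19400 without DP-3 replicate 1 and 247 of 19330 without DP-3 replicate 2. It was 118 of 18753 without FIT replicate 1 and 271 of 18912 without FIT replicate 2, against 1683 of 20039 in the main fit. The replicate block passed 164 of 20039, limma 1099, library totals alone 1418, and the fit without DP-3 replicate 3 281 of 19418.

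D-3 against FIT sets the cells in Matrigel beside the tumor. UPP1 was higher and NT5E lower in D-3, both without overlap, and most enzymes of synthesis did not pass. Of the 41 enzymes 2 were upregulated, against 5.11% of all genes, and 1 downregulated, against 3.17%. UPP1 (2.34, SE 0.29, adjusted p = 0.00519) and NT5E (-1.74, SE 0.26, adjusted p = 0.00934) were the 2 DEGs, where 6.45% of all genes were DEGs. GART rose by 0.68 (SE 0.15, adjusted p = 0.0303). TYMS had a log2 fold change of -0.95 (SE 0.39) and TK1 of -0.57 (SE 0.35), at adjusted p-values of 0.17 and 0.367. The median was -0.10 over the enzymes and 0.02 over all genes. The counts moved with single D-3 libraries. Without D-3 replicate 2, 5 enzymes were DEGs and 7 were downregulated, where 1310 of all 20534 genes were DEGs. Without D-3 replicate 3 UPP1 alone was a DEG, where 240 of all 20403 genes were, and NT5E had -1.64 at an adjusted p of 0.0597. In the main fit 1399 of all 21676 genes were DEGs.

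IT against FIT compares cultured with fresh pieces of tumor. None of the 41 enzymes passed edgeR's quasi-likelihood test, as 0% of all 21183 genes did in either direction and 0% were DEGs. An unadjusted p below 0.05 was found for 2693 of the 21183 genes and for 5 of the 41 enzymes. These were GART (0.58, SE 0.18, adjusted p = 0.262), CMPK2 (-2.05, SE 0.63, adjusted p = 0.264), TK1 (-0.92, SE 0.31, adjusted p = 0.294), NT5C (-0.61, SE 0.21, adjusted p = 0.3003) and UPP1 (1.09, SE 0.42, adjusted p = 0.346). DESeq2 called 1 enzyme, CMPK2 (-2.06, adjusted p = 0.017), where it called 3.12% of all genes, and limma on log2(FPKM + 0.1) called 0, where it called 0.0566%. In a single fit of all 18 libraries GART passed at 0.59 (adjusted p = 0.0149), as did 4.89% of all genes. GART was above and TK1 and NT5C below FIT in all IT libraries, whereas UPP1 and CMPK2 overlapped. The median was -0.03 over the enzymes and 0.01 over all genes. IT replicate 3 was the lowest IT library for TYMS, TK1, RRM1 and RRM2, and its summed level of 12 proliferation markers was 207 FPKM, compared with 347 and 367 in the other IT libraries. The comparisons of D-2, DP-3, D-3 and IT use the same FIT libraries and are not independent of each other.

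D-3 against D-2 compares cells of the same line in Matrigel and on a flat surface. Enzymes of every role were lower in D-3, and UPP1 was higher. In total 25 of the 41 were downregulated, while 16.3% of all genes were, and 1 was upregulated, while 19.2% of all genes were. The 9 DEGs stood against 18.5% of all genes. TYMS fell by 1.63 (SE 0.38, adjusted p = 0.0155), PAICS by 1.59 (SE 0.24, adjusted p = 0.00419), DCTPP1 by 1.35 (SE 0.22, adjusted p = 0.00497), NT5E by 1.3 (SE 0.21, adjusted p = 0.00506) and TK1 by 1.29 (SE 0.36, adjusted p = 0.0289). RRM2 fell by 1.23 (SE 0.36, adjusted p = 0.0328), RRM1 by 1.08 (SE 0.22, adjusted p = 0.0108) and DTYMK by 1.03 (SE 0.18, adjusted p = 0.0065), and UPP1 rose by 2.08 (SE 0.25, adjusted p = 0.00236). None of these 9 overlapped between the groups in FPKM, which is no separate support, since the calls came from the same 6 libraries. By role, 6 of 8 deoxynucleotide enzymes fell, 7 of 9 purine enzymes, 4 of 6 salvage kinases, 3 of 5 pyrimidine de novo enzymes, 2 of 5 mono- and diphosphate kinases and 3 of the 8 breakdown enzymes tested. The median was -0.62 over the enzymes and 0.11 over all genes. In the same comparison 10 of 12 proliferation markers fell, with a summed level of 221 to 344 FPKM in D-3 and 569 to 615 in D-2, and their part was not tested. On library totals alone 14 enzymes fell and 2 rose, and with limma on unscaled log2(FPKM + 0.1) 11 fell and 3 rose. Of all genes that passed, 3881 of 7181 were higher in D-3 in the main fit. On library totals alone it was 5455 of 7009, and with limma 5555 of 6889.

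The number of DEGs in D-3 against D-2 moved with single D-3 libraries: 5 without replicate 1, 15 without replicate 2 and 4 without replicate 3. Replicate 2 was the D-3 library nearest to D-2 for TYMS, TK1 and RRM1. Over all genes the DEGs moved too, to 2139 of 18503, 3519 of 18493 and 2159 of 18415 in turn, against 3746 of 20231 in the main fit. The downregulated enzymes were 13 without D-3 replicate 3, and leaving out replicate 2 or 1 of D-2 gave 15 and 16. In these fits 4213, 4555 and 4338 of all genes passed, of which 2130, 2613 and 2497 were higher in D-3. UPP1, PAICS, DCTPP1 and NT5E were DEGs in every fit that left out 1 library. TYMS lost its call without D-3 replicate 3 (-1.5, adjusted p = 0.0708). TK1 kept its call only without D-3 replicate 2. Here leaving out D-2 replicates 1, 2 and 3 in turn gave -1.26, -1.28 and -1.33 (adjusted p of 0.0599 or above), and the value was -0.94 without D-3 replicate 1 and -1.18 without D-3 replicate 3. RRM2 was no DEG without D-2 replicate 1 (-0.86), D-2 replicate 2 (-1.34, adjusted p = 0.0541), D-3 replicate 1 (-0.93) or D-3 replicate 3 (-1.3, adjusted p = 0.087). Without D-3 replicates 1 and 3 in turn, RRM1 had -0.83 and -1.02 (adjusted p = 0.0502 for the latter) and DTYMK -0.84 and -0.96.

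DP-3 against DP-3 day 1 follows the printed tissue over time. Between day 1 and day 14, enzymes of DNA precursors and of purine synthesis increased modestly, and UPP1 and NT5M declined. There were 16 upregulated enzymes of 41, against 12.2% of all genes, and 3 downregulated ones, against 9.91%. The DEGs were 3, against 7.56% of all genes: NME1 rose by 1.02 (SE 0.19, adjusted p = 0.0103), and UPP1 fell by 1.92 (SE 0.12, adjusted p = 0.00134) and NT5M by 1.84 (SE 0.29, adjusted p = 0.00654), each without overlap of libraries. TK1 (0.77), RRM1 (0.74), TYMS (0.68), ADSL (0.76), IMPDH2 (0.70), NME2 (0.83) and DPYD (0.93) rose by less than 2-fold, and TK2 fell by 0.80. By role, 4 of 8 deoxynucleotide enzymes, 5 of 9 purine enzymes and 1 of 5 pyrimidine de novo enzymes (CTPS1, 0.50) rose. CAD had 0.02 (SE 0.08), while its DP-3 libraries in FPKM lay below those of day 1. The median was 0.42 over the enzymes and -0.06 over all genes. Proliferation markers rose in 11 of 12 cases, and their part was not tested. The split of 16 higher and 3 lower became 9 and 5 on library totals alone, 9 and 4 in a single fit of all 18 libraries, and 4 and 4 with limma on unscaled log2(FPKM + 0.1). The split over all genes moved too. Of all genes that passed, 2532 of 4591 were higher on day 14 in the main fit and 952 of 4471 on library totals alone. In the single fit it was 1779 of 3203, and with limma 630 of 4336. NME1 was under 2-fold without DP-3 replicate 1 (0.96), DP-3 replicate 2 (0.86) or DP-3 day 1 replicate 3 (0.97). Without DP-3 replicate 2 the DEGs were 2, where 1452 of all 20132 genes were DEGs.

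**Figure D5:**
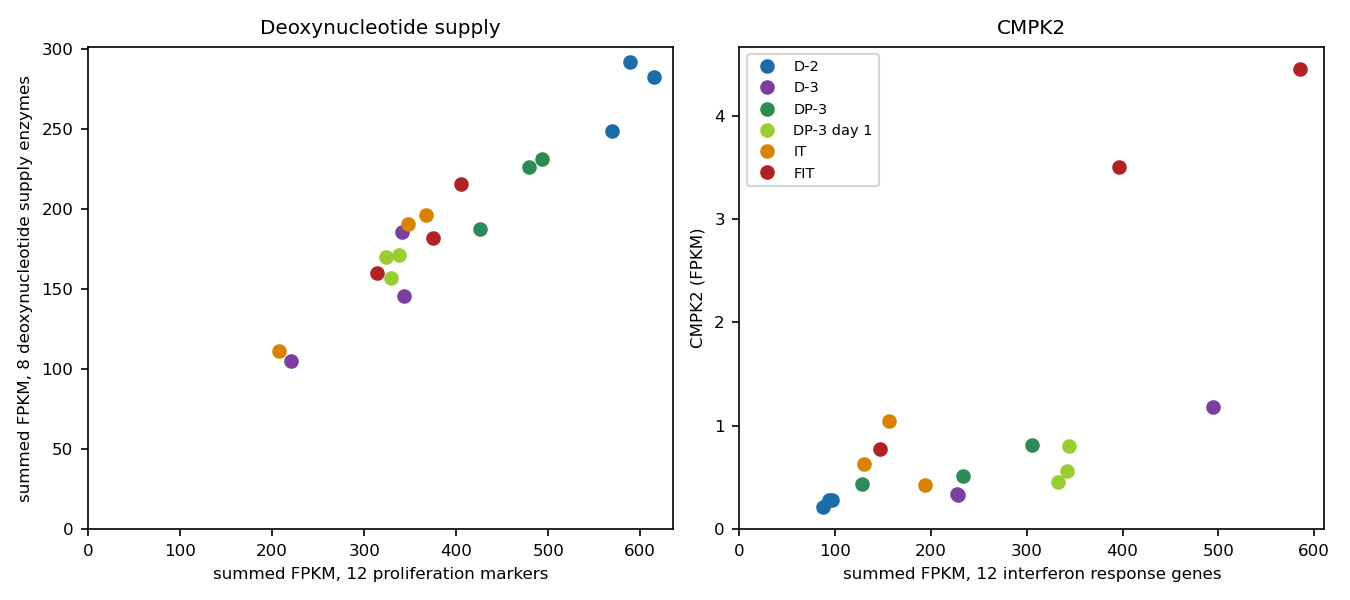
Left, the summed FPKM of the 8 deoxynucleotide supply enzymes (vertical axis) and of the 12 proliferation markers (horizontal axis) in each library (points, coloured by group). Right, CMPK2 FPKM (vertical axis) and the summed FPKM of 12 interferon response genes (horizontal axis). All axes start at 0. The D-2 libraries are the highest on both axes on the left, with IT replicate 3 and D-3 replicate 1 at the lower left, and FIT replicates 1 and 2 stand out on the right.

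The summed levels of the 8 deoxynucleotide enzymes and of the proliferation markers were set side by side. The enzyme sum was 248 to 292 FPKM in D-2, where the markers summed to 569 to 615, and 187 to 231 in DP-3, with markers at 426 to 493. It was 105 in D-3 replicate 1 and 111 in IT replicate 3, the libraries with the lowest markers, 221 and 207. The other libraries held 146 to 216 for the enzymes and 314 to 405 for the markers. The values are a description, and libraries share culture and depth within a group.

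Lists of genes next to these routes were counted in the same way. Of 17 genes of purine salvage and interconversion, 16 were tested in D-3 against D-2, where 6 fell and 2 rose, against 16.3% and 19.2% of all genes. AMPD3, an AMP deaminase, had log2 fold changes of 2.62 (SE 0.28, adjusted p = 0.00188) in D-3 against D-2 and -1.32 (SE 0.32, adjusted p = 0.0195) in D-2 against FIT. In D-2 against FIT 6 of the 16 rose and 1 fell, against 16% and 14.9% of all genes. Of 10 genes of nucleotide breakdown and transport, 6 were tested. SLC29A1, the equilibrative nucleoside transporter ENT1, rose in D-2 against FIT (1.25, SE 0.27, adjusted p = 0.0132) and fell in D-3 against D-2 (-1.01, SE 0.20, adjusted p = 0.00952). XDH, which makes uric acid, fell in DP-3 against FIT (-1.32, SE 0.32, adjusted p = 0.0456). All 8 genes of folate one-carbon supply were tested, and 5 of them rose in D-2 against FIT, against the same 16%. MTHFD2, a mitochondrial folate enzyme, rose in D-3 against FIT (1.24, SE 0.14, adjusted p = 0.00361). In D-3 against D-2, ALDH1L2 rose (1.02, SE 0.14, adjusted p = 0.00337) and SLC19A1, the reduced folate carrier, fell (-1.11, SE 0.20, adjusted p = 0.00698).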

How the data were processed

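RNA sequencing values of 18 libraries were analysed. Per the submitters' processing notes, the authors used cutadapt 1.9, HISAT2 2.0.4 and StringTie 1.3.4d, with DESeq2 and edgeR. The build is not given in the sources used here, and the positions of all 42 enzymes overlapped those of GENCODE 29 on GRCh38. The deposited FPKM values, by the authors, scale fragments to gene length and library total. The deposited estimated counts are whole numbers, but 35.0% of 212148 low ones are multiples of 4, against 25% expected of single reads. FPKM and counts of a gene kept 1 ratio across libraries within 1.5 times in all 9382 genes checked. Libraries were grouped by their labels, and 0 sample columns stayed unused.

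Genes that reached 0.1 FPKM in 3 or more libraries were tested with edgeR 4.0.16 (TMM, estimateDisp, glmQLFit, glmQLFTest) in R 4.3.3, with adjusted p below 0.05 and, for DEGs, 2-fold. Alternatives were median-of-ratios scaling, no filter, DESeq2 1.42.0, limma 3.58.1 on log2(FPKM + 0.1), a replicate block, 1 fit of all libraries, no fold minimum and each library left out, and library totals alone was added after seeing the data. The code was tested on simulated counts. Every member called in a comparison is named there, or, where none was, the 5 with the smallest p, and of other lists up to 6 genes called most often. The members and lists were chosen with earlier results of these data known. CCAAT was searched after the data were seen. Differences in depth limit FIT replicate 3 most: 12 estimated counts were a CPM of 0.506 there and 0.152 in the deepest library, covering counting error only. They would be 3 read pairs if each pair gave 4 counts, which was not established.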

Additional observations from a re-analysis of the deposited data

Results flagged for a closer look

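For 3 enzymes the libraries of D-2 all lay above FIT and those of IT all below it. How many of all genes had this pattern was not counted. In TK1 the log2 fold changes were 0.68 in D-2 and -0.92 in IT, in UCK1 0.40 and -0.28, and in DUT 0.27 and -0.22. The difference between the 2 cultures was not tested, both use the same FIT libraries, and of these values only that of TK1 in D-2 passed the adjusted threshold of edgeR's quasi-likelihood test. With 3 libraries a group, no single library was tested as an outlier.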

How the results depend on the processing

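With no fold minimum the called enzymes were 20 in D-2, 5 in DP-3 and 3 in D-3 against FIT, 19 in DP-3 against day 1, 26 in D-3 against D-2 and 29 among the groups. In D-2 against FIT, limma on log2(FPKM + 0.1) and library totals alone gave 3 DEGs each, where they called 3037 and 3050 of all 19513 genes. In DP-3 against FIT the count of 1 became 2 with median-of-ratios scaling (RRM2 and DPYD) and 2 with 1 fit of all libraries (CMPK2 and DPYD, without RRM2), 3 without a filter and with DESeq2, and 0 with limma, with the replicate block and on library totals alone. Of all 20039 genes in DP-3 against FIT, the main fit and median-of-ratios scaling called 965 each, 1 fit of all libraries 1619 and DESeq2 1896. There limma called 996, the replicate block 164 and library totals alone 979, and without a filter it was 1263 of 34661. DESeq2 called 1 enzyme in IT and 5 in DP-3 against day 1, where it called 3.12% and 9.82% of all genes. Leaving out 1 library gave, against FIT, 2 to 7 DEGs for D-2, 1 to 5 for D-3, 0 to 2 for DP-3 and 0 for IT. It gave 2 to 4 in DP-3 against day 1, 4 to 15 in D-3 against D-2 and 13 to 18 among the groups. Over all genes these fits called, against FIT, 1755 to 2980 for D-2, 240 to 1495 for D-3, 90 to 1438 for DP-3 and 0 to 1 for IT. They called 744 to 1585 in DP-3 against day 1, 2139 to 3519 in D-3 against D-2 and 5252 to 6489 among the groups. The causes were not tested.

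Over the fold changes of DEGs between 2 groups, 211 values under the alternatives kept their direction and call, and 49 kept their direction and lost the call. Of the ranges over the 6 groups, which have no direction, 342 kept the call and 42 lost it. CMPK2 and DPYD in D-2 against FIT, UPP1 in all 3 comparisons that called it, NT5M in DP-3 against day 1, and DCTPP1, NT5E and PAICS in D-3 against D-2 were DEGs in every fit. Same-numbered libraries of compared groups correlated at -0.04 to 0.06 in their deviations from group means, and the main fits did not pair them by number. The replicate block gave, against FIT, 6 DEGs for D-2, 2 for D-3 and 0 for DP-3 and for IT. It gave 2 in DP-3 against day 1, 10 in D-3 against D-2 and 16 among the groups. Over all genes it called, against FIT, 2177 of 19513 for D-2, 904 of 21676 for D-3, 164 of 20039 for DP-3 and 0 of 21183 for IT. It called 938 of 20774 in DP-3 against day 1, 3134 of 20231 in D-3 against D-2 and 5639 of 25977 among the groups. Each library of the first-named group was matched to the library of the other group with which it correlated best. This was the same-numbered one for 3 of 3 libraries in DP-3 against day 1 and 2 of 3 in DP-3 against FIT. It was 1 of 3 in IT against FIT and in D-3 against D-2, and 0 in D-2 and D-3 against FIT.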
